A study of Mus musculus with 4 samples.

Results

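In CD8 T cells isolated from mouse MC38 colon tumours, 205 genes were lower after Klf4 was added and higher in cells labelled as lacking it. They were chosen by their measured values from the 12570 whose mean over 4 libraries reached 1 TPM (a transcript abundance corrected for length and scaled to the same total in every library). A member had a difference of log2(TPM + 1) of -1 or less for Klf4 minus MigRI and of 1 or more for Klf4 cKO minus Control (WT). Of all measured genes, 10.3% met the first condition, 38.4% the second and 2.24% both. The last share was 282 genes, of which 77 were left out by name: 45 receptor gene segments, 12 genes starting with Cd, 7 granzymes, 6 killer lectin receptors, 6 listed genes (Ctla4, Tigit, Pdcd1, Icos, Ctsw and Batf) and Traf3ip3, which shares its first letters with the receptor segments. Since both differences chose the members, their directions are a description and not a finding.

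Each group was 1 library, so nothing below has a replicate check and no p-value was computed. In the gain experiment, CD8 T cells of the PmelI line, which carry a transgenic receptor for gp100, a melanocyte protein, received the retroviral vector MigRI or Klf4. They were transferred on day 7 into Rag2 KO hosts, which lack T and B cells of their own, bearing MC38-gp100 tumours, and GFP-positive CD8 cells were taken from the tumours on day 15. In the loss experiment, PD1-positive CD8 cells that had entered MC38 tumours in Control (WT) and Klf4 cKO mice were isolated on day 14. Tumours were seeded with 300000 cells, and a library came from 10000 to 20000 isolated cells. The labels used here name no Cre driver, no deleted part of Klf4, no age of the mice and no number of animals behind a library. The 2 experiments differ in host, receptor, tumour line and day, so levels are set side by side between them without a difference.

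Klf4 is a zinc finger transcription factor of the Kruppel-like family, which binds GC-rich and CACCC sequences and can raise or lower transcription. In T cells, members of this family are known for holding cells in quiescence. CD8 T cells that meet antigen in a tumour for a long time keep inhibitory receptors and lose part of their killing capacity, a state called exhaustion. Their activity depends on a chain from the receptor through kinases and adaptors, on interleukin receptors, on costimulatory receptors of the TNF receptor family and on chemokine receptors that place them in the tissue.

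Klf4 itself was at 8.69 TPM in MigRI, 26.0 TPM with Klf4, 7.52 TPM in Control (WT) and 9.28 TPM in Klf4 cKO, so its level does not check the label of the Klf4 cKO library. Cd8a, Cd8b1, Cd3e and Trac, which define CD8 T cells, were present in all 4 libraries, and Cd4 was below 1 TPM in each. The CD8 markers moved with the members: their summed level was 1935 TPM in the vector library against 439 TPM with Klf4, and 1093 TPM in Control (WT) and 4341 TPM in Klf4 cKO. The constant genes Trac, Trbc1 and Trbc2 had a mean log2 difference of -2.03 in the gain and 1.82 in the loss experiment. The summed level of 24 macrophage markers was 3973 and 19497 TPM in the gain experiment and 2411 and 4210 TPM in the loss experiment, with no marker at 0 in any library. The 15 fibroblast and endothelium markers summed to 183 and 1460 TPM and to 265 and 403 TPM, with Cdh5 and Kdr at 0 in Control (WT). The 11 mast cell markers summed to 2.35 and 116 TPM and to 0.278 and 100.3 TPM, with 6, 1, 10 and 1 of them at 0 in the order MigRI, Klf4, Control (WT) and Klf4 cKO. Of 7 dendritic cell markers with a mean of at least 1 TPM, 2 were lower and 2 higher with Klf4 by 1 log2 or more. In Klf4 cKO 2 of the 7 were higher and 0 lower, and the list medians were 0.28 and 0.06. The sums over all 11 went in the directions of the members, while the median of the 7 in the gain experiment did not. The 11 dendritic cell markers summed to 697 and 335 TPM and to 99.2 and 293 TPM. They hold the member Ccr7, and without it the sums were 411 and 209.9 TPM and 77.5 and 172 TPM, with 3, 1, 3 and 1 of the other 10 at 0 (Flt3, Clec9a and Siglech in MigRI, Cd209a with Klf4, Flt3, Clec9a and Cd209a in Control (WT), Clec9a in Klf4 cKO). Neutrophil markers summed to 28.6 and 113 TPM and to 29.3 and 3.60 TPM, B cell markers to 125 and 98.6 TPM and to 42.1 and 34.4 TPM with Ms4a1 and Jchain at 0 in all 4 libraries. Markers of CD4 and regulatory T cells summed to between 19.0 and 28.6 TPM, and those of natural killer and gamma delta cells to 211 and 356 TPM and to 445 and 246 TPM. The part of these cells in the members' differences was not tested, and fewer T cells and less of a transcript per T cell cannot be told apart in a bulk library.

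The members carried 2.82% of the total in MigRI against 0.861% with Klf4, and 1.11% in Control (WT) and 3.16% in Klf4 cKO. Their median level was 23.6 TPM in MigRI, 6.94 TPM with Klf4, 10.8 TPM in Control (WT) and 32.6 TPM in Klf4 cKO. Most were of low or middle level: the mean over the libraries was below 10 TPM for 70, from 10 to below 100 TPM for 97 and at least 100 TPM for 38. The log2 difference ranged from -4.47 to -1.0 with a median of -1.58 in the gain experiment, and from 1.01 to 3.29 with a median of 1.44 in the loss experiment. Only 10 members reached 2 log2 in both, while 69 did so in the gain and 26 in the loss experiment. With Klf4, 21 members were listed at 0, and in Control (WT) 9 were, 3 of them in both. Such a listing may be an estimate that failed, and no fold is given for those genes. Besides the 166 genes with plain names, the members were 32 predicted genes, 5 small RNAs by name and the gamma chain constant genes Tcrg-C2 and Tcrg-C4, whose names the exclusions do not cover. Tcrg-C2 was at 9.67 TPM in MigRI, listed at 0 with Klf4, and at 11.6 and 122.5 TPM in the loss experiment. Tcrg-C4 was at 21.2 TPM in MigRI, listed at 0 with Klf4, and at 1.94 and 6.41 TPM. Reads can be split between such similar genes, so these values are uncertain.

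**Figure D1:**
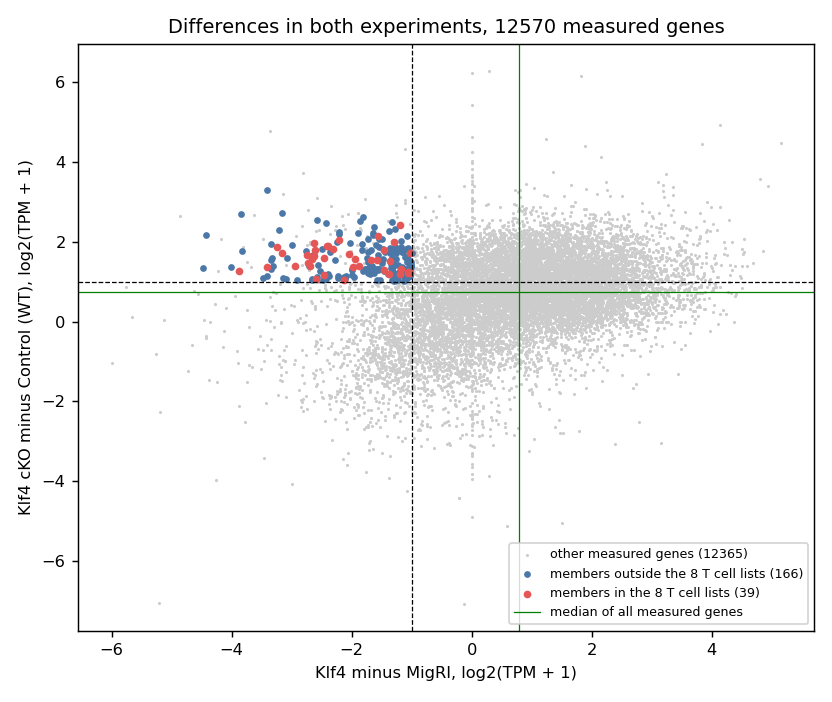
Difference of log2(TPM + 1) for Klf4 minus MigRI (x axis) and for Klf4 cKO minus Control (WT) (y axis), 1 point per measured gene. Dashed lines mark the thresholds of the rule at -1 and 1, and green lines mark the medians of all measured genes, 0.79 and 0.74, so the members lie far left of the median gene and partly close above it.

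The median of all measured genes was 0.79 for Klf4 minus MigRI and 0.74 for Klf4 cKO minus Control (WT). Since the first median is above 0, the rule fixes that all 205 members lie more than 1 log2 below it, where 23.6% of measured genes lie, and nothing is read from that count. In the loss experiment 66 of the 205 were higher than the median gene by at least 1 log2, where 12.4% of measured genes were. The members were chosen on this difference, so the fairer base is the 4826 measured genes that met the second condition. Of these, 1560 were that far above the median gene, a similar share, and nothing is read from this count either. Set against Trac, Trbc1 and Trbc2, 68 members were lower with Klf4 and 137 higher, and 49 were higher in Klf4 cKO and 156 lower. On that scale 19 members kept both directions, and 1, the receptor gene Tcrg-C2, met the whole rule. The 19 included Sit1, Sh2d2a, Cst7, Ms4a4b, Ccr8, Gpr18, Gimap6, Arhgap15, Rnf113a2 and Tesc. Against the receptor genes in Klf4 cKO, Rnf113a2 was at 0.66 log2, Tesc at 0.49, Sit1 at 0.23 and Cst7 at 0.14. Ms4a4b was at 0.090, Gpr18 at 0.087, Sh2d2a at 0.083, Ccr8 at 0.049, Gimap6 at 0.0062 and Arhgap15 at 0.0031. For these last genes the kept direction rests on very small differences. The median member was 0.45 log2 above the receptor genes with Klf4 and -0.38 log2 against them in Klf4 cKO.

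**Figure D2:**
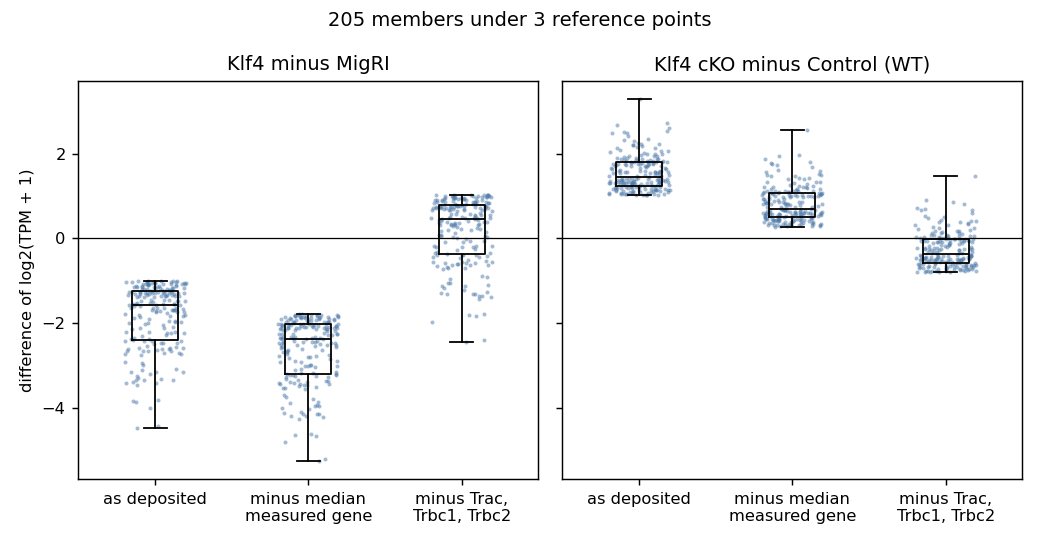
Differences of log2(TPM + 1) of the 205 members in the gain (left) and loss (right) experiment, as deposited, minus the median measured gene and minus the mean of Trac, Trbc1 and Trbc2. Points are genes, boxes span the quartiles with the median as a line, and whiskers reach the lowest and highest member. Against the receptor genes the medians are 0.45 and -0.38, on the other side of 0 from the deposited differences.

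By function, the members were spread unevenly over 36 gene lists. Of 326 measured genes in 8 lists of T cell biology, 39 were members (12.0%), against 1.63% of all measured genes. The highest shares were 6 of 8 GIMAP GTPases, 12 of 60 receptor signalling genes and 9 of 47 migration and G protein signalling genes. TNF family genes had 4 members of 31 and cytokine receptor and JAK-STAT genes 5 of 42. The list of effector and granule genes had 1 of 45, and that of transcription factors 1 of 66, although the exclusions by name took 1 further gene from each and 4 from the 28 immune checkpoint and SLAM genes, which kept 2. Most of the 7 granzymes and 6 killer lectin receptors that met both thresholds were outside the effector list. Its count of members therefore does not show that effector genes were few. No member came from the glycolysis, interferon response, MHC class I, proteasome, spliceosome, solute carrier, macrophage or fibroblast lists. The dendritic cell list had 1 member of 7 measured genes, Ccr7. Many genes of the glycolysis and proteasome lists were higher in Klf4 cKO (16 of 21 for glycolysis, 37 of 48 for the proteasome), but 0 and 1 of them were lower with Klf4. The lists were chosen with earlier results of these data known, and 104 of the 166 members that were neither predicted genes, small RNAs nor receptor genes were in none of them.

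**Figure D3:**
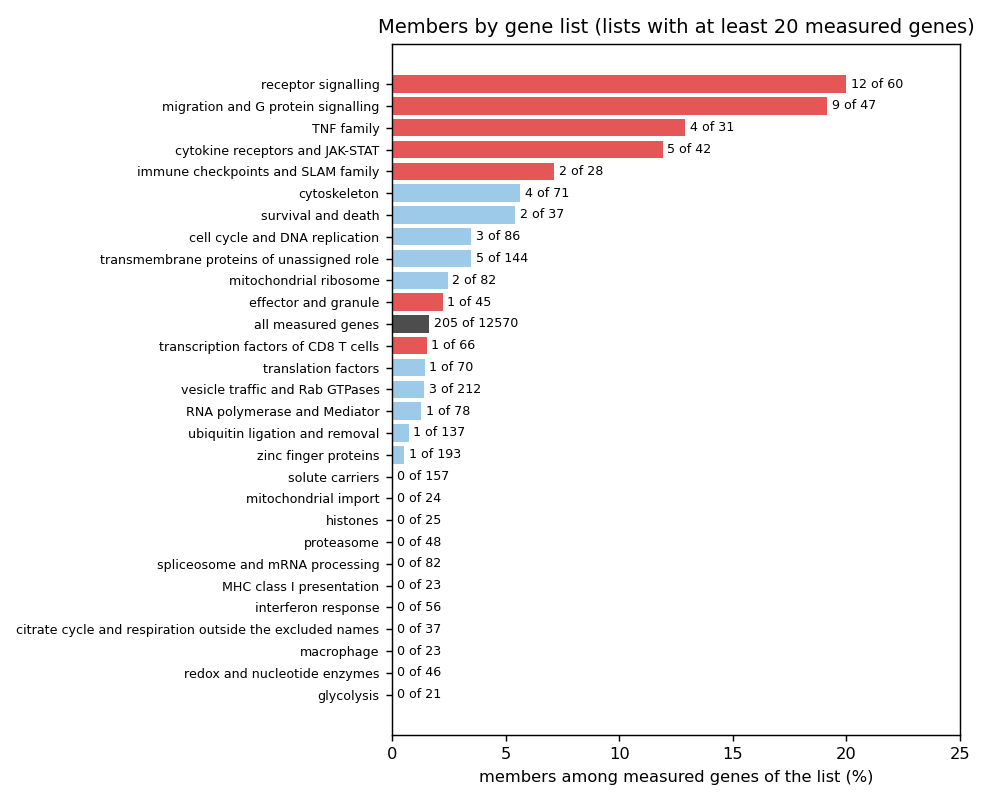
Share of measured genes that were members, in percent, for each gene list with at least 20 measured genes; the count of members and of measured genes stands beside each bar. Red bars are lists of T cell biology, and the dark bar is all measured genes, 205 of 12570.

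Receptor signalling had the most members. Of its 60 measured genes 22 were lower with Klf4 and 29 higher in Klf4 cKO, with list medians of -0.49 and 0.96 against 0.79 and 0.74 over all measured genes. Its 12 members include positive and negative parts of the chain. Lat, the membrane adaptor that ZAP70 phosphorylates, was at 466 TPM in MigRI against 70.9 TPM with Klf4, and at 121 TPM in Control (WT) and 321 TPM in Klf4 cKO, log2 differences of -2.70 and 1.40. For the other genes the first pair of TPM values is MigRI and Klf4, the second pair is Control (WT) and Klf4 cKO, and the log2(TPM + 1) differences of the gain and loss experiment stand in parentheses. Skap1, an adaptor that links the receptor to integrin activation, was at 114 and 17.7 TPM and at 52.5 and 165 TPM (-2.62 and 1.64). In both genes, Klf4 was the lowest of the 4 libraries.

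For 5 further adaptors and phosphatase genes Klf4 was also the lowest library. Sh2d2a, which encodes TSAd, was at 573 TPM in MigRI against 108 TPM with Klf4, and at 140.1 TPM in Control (WT) and 526 TPM in Klf4 cKO (-2.40 and 1.90). Lime1, a transmembrane adaptor, was at 149 and 15.8 TPM and at 125 and 411 TPM (-3.16 and 1.71). Sh2d1a encodes SAP, the adaptor of the SLAM receptors, and was at 194 and 17.4 TPM and at 71.1 and 184 TPM (-3.41 and 1.36). Ptprc, the phosphatase CD45, was at 28.1 and 11.9 TPM and at 36.4 and 93.0 TPM (-1.18 and 1.33). Ptprcap, whose product binds CD45, was at 1486 and 100.4 TPM and at 1034 and 2503 TPM (-3.87 and 1.27), the difference farthest from 0 among these members in the gain experiment.

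The members also include inhibitory components, whose directions the rule fixed. Sit1, a transmembrane adaptor that limits receptor signalling, was at 40.6 TPM in MigRI against 7.997 TPM with Klf4, and at 11.2 TPM in Control (WT) and 49.4 TPM in Klf4 cKO (-2.21 and 2.05). Sla2, an adaptor that lowers surface receptor, was at 96.9 and 13.7 TPM and at 33.1 and 108 TPM (-2.74 and 1.67). Tbc1d10c, an inhibitor of calcineurin and Ras, was at 123 and 27.3 TPM and at 45.0 and 93.8 TPM (-2.12 and 1.04). Apart from these inhibitors, Prkch, the kinase PKC eta, lay just inside the rule at 17.0 and 7.90 TPM and at 16.3 and 39.0 TPM (-1.02 and 1.21). Set against the receptor constant genes, 10 of the 12 were lower with Klf4 and 2 higher in Klf4 cKO, Sit1 and Sh2d2a. Genes of the same list that stayed outside include Lck, the kinase that starts the chain, at 269 and 69.4 TPM and at 214 and 327 TPM, and Zap70 at 17.4 and 7.71 TPM and at 43.3 and 34.3 TPM. Several inhibitors of receptor signalling also stayed outside: Csk (-0.04 and 0.49), Dgka (0.03 and 0.50) and Dgkz (-0.06 and 0.38). The same holds for Cblb (-0.52 and 1.01), Lax1 (-0.62 and 2.18) and Dok1 (3.14 and 1.32).

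**Figure D4:**
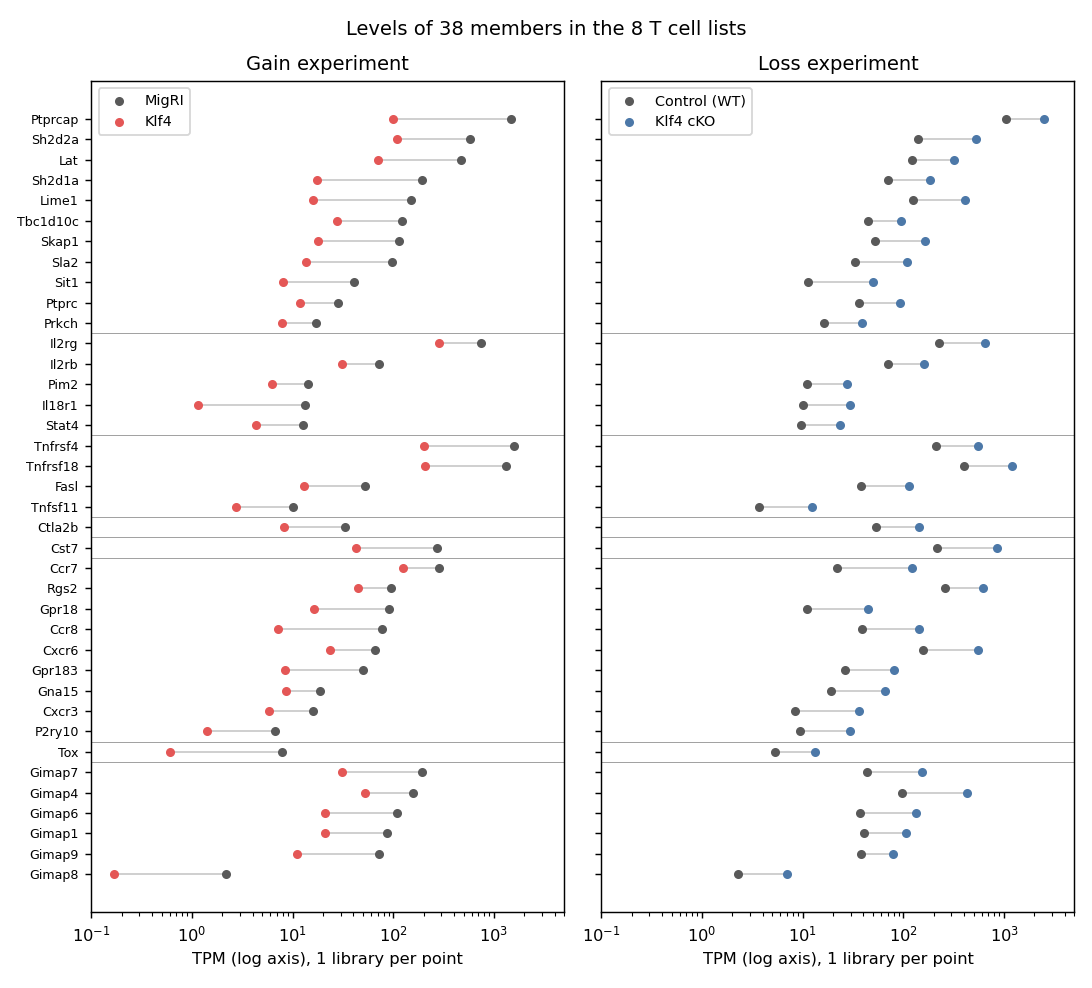
TPM on a log axis of 38 members in the 8 T cell lists, 1 point per library, for the gain experiment (left, MigRI and Klf4) and the loss experiment (right, Control (WT) and Klf4 cKO). Thin lines separate the lists in the order receptor signalling, cytokine receptors, TNF family, checkpoints, effector, migration, transcription factors and GIMAP GTPases; Ptprcap reaches from 100.4 to 1486 TPM in the left panel.

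Promoter sequences were looked up for these genes because Klf4 binds DNA. Promoter windows of 300 bases ran from 250 before to 50 after a start site. RefSeq (GRCm38.p6) gave them for 144 of the 205 members (70.2%), 29 of the 39 in the T cell lists (74.4%) and 69.8% of all measured genes. Each set thus lacks part of its genes, and some genes have several windows, with 35 for the 29 T cell list members. A comparison of motif shares over these sets is therefore void. Of 11064 windows of measured genes, 11.7% held the strict CACCC box of Kruppel-like factors, CCCCACCC, on either strand. Among the 35 windows of the T cell list members 3 did, those of Tnfrsf18, Lat and Il2rg. The RUNX core TGTGGT was in 13.2% of all windows and in 14 of the 35. Over the 186 windows of all members, 24 held the strict box and 38 the RUNX core. The CACCC box is shown as the sequence bound by the family of Klf4, and the RUNX core as that of factors known to act in CD8 T cells. Both were picked from 10 motifs after the counts were seen. The 250 bases before the start are shown for Tnfrsf18 and Lat with the CACCC box in capitals, which here lies on the reverse strand as GGGTGGGG.
Tnfrsf18, chr4:156026072-156026321, plus strand: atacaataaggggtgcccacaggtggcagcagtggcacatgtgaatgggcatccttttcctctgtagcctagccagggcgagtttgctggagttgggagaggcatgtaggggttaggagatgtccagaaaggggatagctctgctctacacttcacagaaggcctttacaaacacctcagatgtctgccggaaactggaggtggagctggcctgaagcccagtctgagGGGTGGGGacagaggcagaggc
Lat, chr7:126369569-126369818, minus strand: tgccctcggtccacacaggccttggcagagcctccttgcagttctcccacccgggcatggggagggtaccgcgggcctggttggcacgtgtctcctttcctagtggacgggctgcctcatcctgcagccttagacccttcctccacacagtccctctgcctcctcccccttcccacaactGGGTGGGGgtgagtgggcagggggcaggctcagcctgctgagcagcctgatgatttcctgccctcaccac
The box begins 22 bases before the start of Tnfrsf18 and 70 before that of Lat. For the RUNX core, the same span is shown for Cst7, Gpr18 and Gimap7, the 3 T cell list members with the core whose smaller difference was largest, with the core in capitals (ACCACA where it lies on the reverse strand).
Cst7, chr2:150570165-150570414, plus strand: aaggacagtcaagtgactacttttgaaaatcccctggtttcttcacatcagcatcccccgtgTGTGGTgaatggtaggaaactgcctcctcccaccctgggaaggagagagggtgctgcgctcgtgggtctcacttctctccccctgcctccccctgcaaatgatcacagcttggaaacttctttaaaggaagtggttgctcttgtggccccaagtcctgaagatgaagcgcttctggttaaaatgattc
Gpr18, chr14:121915889-121916138, minus strand: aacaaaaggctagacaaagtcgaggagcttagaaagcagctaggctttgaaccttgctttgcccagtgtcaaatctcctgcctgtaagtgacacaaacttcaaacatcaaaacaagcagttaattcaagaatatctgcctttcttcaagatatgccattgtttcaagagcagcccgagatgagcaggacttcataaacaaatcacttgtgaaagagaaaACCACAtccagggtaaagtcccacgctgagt
Gimap7, chr6:48718371-48718620, plus strand: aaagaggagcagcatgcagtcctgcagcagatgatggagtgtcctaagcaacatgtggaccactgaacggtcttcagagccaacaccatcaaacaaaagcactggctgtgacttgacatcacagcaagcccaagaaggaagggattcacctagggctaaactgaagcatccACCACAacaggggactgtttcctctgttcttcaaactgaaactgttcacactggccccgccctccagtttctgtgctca
The core begins 188 bases before the start of Cst7, 31 before that of Gpr18 and 79 before that of Gimap7. A match of letters is not a bound site.

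The other 8 motifs, searched on both strands, were the broad Kruppel-like box CCNCNCCC, which contains the strict box, its core CACCC, the ETS site CCGGAAGT, the AP-1 site TGANTCA, the cyclic AMP element TGACGTCA, the T-box site AGGTGTGA, the NFAT core GGAAAA and the TATA box TATAAA. They were in 65.9%, 62.2%, 8.54%, 5.47%, 3.07%, 0.895%, 20.9% and 7.90% of all windows, in this order. In the 186 windows of members they occurred in 112, 112, 5, 13, 4, 6, 43 and 17 windows. In the 35 windows of the T cell list members they occurred in 15, 22, 0, 3, 0, 1, 9 and 3. A stretch that holds overlapping motifs was counted for each of them. The median GC content was 50.7% in the windows of the T cell list members, 55.8% in those of all members and 60.3% over all windows.

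GIMAP GTPases, small guanine nucleotide binding proteins of lymphocytes known for supporting their survival, were the most complete family. Of 8 genes 7 were lower with Klf4, 6 were higher in Klf4 cKO and 6 were members, with list medians of -1.80 and 1.33. Gimap7 was at 195 TPM in MigRI against 31.2 TPM with Klf4, and at 43.4 TPM in Control (WT) and 153 TPM in Klf4 cKO (-2.61 and 1.79). Gimap6 was at 108 and 21.0 TPM and at 36.7 and 133 TPM (-2.32 and 1.82), and Gimap4 at 157 and 52.6 TPM and at 96.0 and 426 TPM (-1.56 and 2.14). Gimap1 was at 85.7 and 21.0 TPM and at 41.0 and 107 TPM (-1.98 and 1.36). Klf4 was the lowest library in these 4 genes, as in most members.

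Gimap9 was at 71.4 and 11.02 TPM and at 37.5 and 79.0 TPM (-2.59 and 1.06), and Gimap8, the lowest of the family, at 2.20 and 0.169 TPM and at 2.25 and 6.97 TPM (-1.45 and 1.30). The remaining genes did not meet the rule: Gimap5 was at 25.3 and 7.55 TPM and at 40.6 and 41.6 TPM, and Gimap3 at 42.2 and 27.1 TPM and at 67.2 and 93.9 TPM. The 6 members lie side by side on chromosome 6 between 48569696 and 48743795 (GRCm38.p6), a stretch that also holds the member Rarres2, which encodes the chemoattractant chemerin. Rarres2 was at 16.3 and 2.75 TPM and at 3.83 and 21.3 TPM (-2.20 and 2.20).

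Among TNF family genes, the costimulatory receptors Tnfrsf18 (GITR) and Tnfrsf4 (OX40), which are neighbours on chromosome 4 from 156013595 to 156028894, were among the highest members. Tnfrsf18 was at 1304 TPM in MigRI against 206 TPM with Klf4, and at 404 TPM in Control (WT) and 1194 TPM in Klf4 cKO (-2.66 and 1.56). Tnfrsf4 was at 1581 and 204 TPM and at 209 and 554 TPM (-2.95 and 1.40), with Control (WT) almost as low as Klf4. The ligand Fasl, which triggers death of cells bearing Fas, was at 52.7 and 12.96 TPM and at 37.7 and 113 TPM (-1.94 and 1.56). Tnfsf11, the ligand RANKL, was at 10.1 and 2.72 TPM and at 3.66 and 12.5 TPM (-1.58 and 1.53). Over the 31 measured genes of the list, 6 were lower with Klf4, 18 were higher in Klf4 cKO and the medians were 0.31 and 1.13.

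Members from the list of cytokine receptors and JAK-STAT genes differed by smaller amounts, apart from Il18r1. Il2rg, the common gamma chain shared by several interleukin receptors, was at 737 TPM in MigRI against 287 TPM with Klf4, and at 226 TPM in Control (WT) and 649 TPM in Klf4 cKO (-1.36 and 1.51). Il2rb, its partner for interleukins 2 and 15, was at 71.9 and 30.9 TPM and at 69.5 and 161 TPM (-1.19 and 1.20). Il18r1, a chain of the interleukin 18 receptor, had the largest difference of the 5 in the gain experiment, at 13.3 and 1.16 TPM and at 10.002 and 29.5 TPM (-2.73 and 1.47). Stat4, which carries the interleukin 12 signal, was at 12.7 and 4.30 TPM and at 9.68 and 23.3 TPM (-1.37 and 1.19). The cytokine-induced survival kinase Pim2 was at 14.1 and 6.23 TPM and at 11.1 and 27.2 TPM (-1.06 and 1.22). None of the 5 was higher in Klf4 cKO by 1 log2 relative to the median gene. Of 42 measured genes 6 were lower with Klf4, 14 were higher with Klf4 and 20 were higher in Klf4 cKO.

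Chemokine and other G protein-coupled receptors and their signalling proteins made up 9 members, among 13 of 47 measured genes lower with Klf4 and 27 higher in Klf4 cKO (list medians -0.03 and 1.24). Ccr8, the receptor for CCL1, was at 76.8 TPM in MigRI against 7.22 TPM with Klf4, and at 38.8 TPM in Control (WT) and 144 TPM in Klf4 cKO (-3.24 and 1.87). Cxcr6, a receptor of tissue-resident T cells, was at 65.8 and 23.3 TPM and at 156 and 545 TPM (-1.46 and 1.80), so both libraries of the loss experiment were above both of the gain experiment. Cxcr3, which binds interferon-induced chemokines, was at 15.8 and 5.88 TPM and at 8.43 and 36.3 TPM (-1.29 and 1.98). Ccr7, the lymph node homing receptor of T cells and of dendritic cells, was highest in MigRI, at 286 and 125 TPM and at 21.7 and 121 TPM (-1.19 and 2.43).

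Gpr183, the receptor for oxysterols, and its neighbour Gpr18 lie on chromosome 14 from 121911434 to 121965193. Gpr183 was at 50.5 TPM in MigRI against 8.34 TPM with Klf4, and at 26.0 TPM in Control (WT) and 81.1 TPM in Klf4 cKO (-2.46 and 1.60), and Gpr18 at 91.6 and 16.4 TPM and at 11.1 and 44.2 TPM (-2.42 and 1.91). P2ry10, a lysophosphatidylserine receptor, was at 6.72 and 1.41 TPM and at 9.45 and 29.5 TPM (-1.68 and 1.55). The signal transducer Gna15 and the GTPase activator Rgs2, which shortens such signals, lay close to the gain threshold. Gna15 was at 18.7 and 8.64 TPM and at 19.2 and 65.4 TPM (-1.03 and 1.71), and Rgs2 at 94.4 and 44.7 TPM and at 261 and 617 TPM (-1.06 and 1.24).

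Lists of effector genes, checkpoints and transcription factors gave few members, with granzymes and listed checkpoints left out by name. Cst7 encodes cystatin F, an inhibitor of the proteases that activate granzymes, and was at 272 TPM in MigRI against 43.0 TPM with Klf4, and at 216 TPM in Control (WT) and 846 TPM in Klf4 cKO (-2.63 and 1.96). Tox, a transcription factor of exhausted cells, was at 7.89 and 0.612 TPM and at 5.35 and 13.3 TPM (-2.46 and 1.17). Ctla2b, a protein related to the propeptide of cathepsins, was at 33.3 and 8.30 TPM and at 53.3 and 141 TPM (-1.88 and 1.39). Ms4a4b, a membrane protein of T cells that was in no list, had the highest level of any member, at 1390.0 and 174 TPM and at 995 and 3736 TPM (-2.99 and 1.91). Plac8, also in no list, was at 975 and 337 TPM and at 939 and 1946 TPM (-1.53 and 1.05).

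Regulators of the cytoskeleton had 4 members of 71 measured genes, of which 15 were lower with Klf4 and 43 higher in Klf4 cKO. Rac2, a small GTPase of blood cells, was at 245 TPM in MigRI against 77.5 TPM with Klf4, and at 100.2 TPM in Control (WT) and 451 TPM in Klf4 cKO (-1.65 and 2.16). Arhgdib, which holds small GTPases inactive, was at 1463 and 502 TPM and at 445 and 1887 TPM (-1.54 and 2.08). Arhgap15, which inactivates Rac, was at 13.1 and 1.51 TPM and at 9.16 and 34.9 TPM (-2.49 and 1.82). Stmn1, the microtubule regulator stathmin, was at 1745 and 771 TPM and at 446 and 1053 TPM (-1.18 and 1.24). Lpxn, the focal adhesion protein leupaxin, was outside this list, at 95.2 and 28.0 TPM and at 31.6 and 136 TPM (-1.73 and 2.07).

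Survival and cell cycle genes contributed few members. Bcl2a1b and Bcl2a1d, near-identical copies of the anti-apoptotic gene A1, were highest in Klf4 cKO: Bcl2a1b was at 434 and 190.3 TPM and at 674 and 1520.0 TPM (-1.19 and 1.17), and Bcl2a1d at 379 and 117 TPM and at 502 and 1157 TPM (-1.69 and 1.20). A further copy, Bcl2a1a, did not meet the rule, at 126 and 69.7 TPM and at 168 and 356 TPM (-0.85 and 1.08). How reads were shared between the copies is not given, so their values are uncertain. Of 86 measured cell cycle genes 10 were lower with Klf4 and 48 higher in Klf4 cKO, and 3 were members. Tyms, thymidylate synthase, was at 120.3 and 46.6 TPM and at 15.4 and 43.6 TPM (-1.35 and 1.44). Tipin, which protects replication forks, was at 227 and 86.3 TPM and at 19.7 and 98.2 TPM (-1.38 and 2.26). Smc2, a condensin subunit, was at 49.8 and 21.6 TPM and at 15.4 and 38.0 TPM (-1.17 and 1.25). In these 3, both libraries of the gain experiment were above Control (WT), unlike the receptor signalling genes.

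General cell functions gave the remaining list members. Of 82 measured genes of the mitochondrial ribosome 25 were lower with Klf4 and 39 higher in Klf4 cKO, but 2 were members. Mrpl48 was at 151 and 44.3 TPM and at 16.2 and 50.7 TPM (-1.74 and 1.59), and Mrpl46 at 232 and 101 TPM and at 28.9 and 103 TPM (-1.20 and 1.80). Eif5, a translation initiation factor, was at 249.9 and 113 TPM and at 51.0 and 126 TPM (-1.14 and 1.28), and Vps28, a sorting protein of endosomes, at 766 and 305 TPM and at 287 and 587 TPM (-1.32 and 1.03). The Rab GTPases of vesicle traffic Rab37 and Rab19 were at or below 1.52 TPM with Klf4: Rab37 was at 13.6 and 0.733 TPM and at 1.42 and 6.29 TPM (-3.08 and 1.59), and Rab19 at 21.3 and 1.52 TPM and at 16.7 and 36.5 TPM (-3.14 and 1.08). Tmem254a, Tmem254b and Tmem254c, copies of 1 gene on chromosome 14, had closely similar values and cannot be counted as separate members: the 3 were at 18.5, 27.8 and 27.5 TPM in MigRI, 7.12, 10.9 and 10.9 TPM in the Klf4 library, 8.95, 12.8 and 12.9 TPM in Control (WT) and 32.7, 49.5 and 49.2 TPM in Klf4 cKO. The lists of transmembrane proteins, zinc finger proteins and of RNA polymerase and Mediator gave Tmem191c, Zfp422 and Taf9b, all at low levels. Tmem191c was at 5.69 and 1.61 TPM and at 1.68 and 8.51 TPM (-1.36 and 1.82). Zfp422 was at 5.23 and 1.12 TPM and at 0.948 and 3.81 TPM (-1.55 and 1.31), and Taf9b, a TFIID-related factor, at 3.29 and 0.846 TPM and at 2.60 and 7.44 TPM (-1.22 and 1.23).

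Ranked by the smaller of the 2 differences, the 20 leading members with plain names at 10 TPM or more in the highest library included the T cell genes Sit1, Cst7, Ms4a4b, Gpr18, Sh2d2a, Ccr8, Gimap6 and Gimap7, given above with Rarres2, Arhgap15 and Lpxn. Rnf113a2, a RING finger gene, was at 9.97 TPM in MigRI against 1.04 TPM with Klf4, and at 3.16 TPM in Control (WT) and 22.2 TPM in Klf4 cKO (-2.42 and 2.48). Tesc, the calcium-binding protein tescalcin, was at 16.9 and 0.936 TPM and at 4.10 and 24.2 TPM (-3.21 and 2.30). Phf11c, a PHD finger gene, was at 20.5 TPM in the vector library, listed at 0 with Klf4, and at 4.39 and 23.4 TPM in the loss experiment. Spint2, an inhibitor of serine proteases, was at 63.2 and 12.6 TPM and at 24.2 and 98.7 TPM (-2.24 and 1.99). In each of them both MigRI and Klf4 cKO were above both other libraries.

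The same order of libraries was seen in Mpv17, Fam178b, Dusp22, Gnpda2, Igfbp7 and, from lower in the ranking, Ubxn11. Mpv17, a mitochondrial inner membrane protein, was at 15.7 and 3.09 TPM and at 3.11 and 14.9 TPM (-2.03 and 1.96), and Fam178b at 20.1 and 1.07 TPM and at 2.57 and 12.8 TPM (-3.35 and 1.95). Dusp22, a phosphatase that dampens Lck, was at 11.8 and 2.43 TPM and at 1.58 and 10.9 TPM (-1.90 and 2.21). Gnpda2, an enzyme of hexosamine metabolism, was at 31.2 and 5.29 TPM and at 12.2 and 43.3 TPM (-2.36 and 1.75), and Ubxn11, a UBX domain protein, at 38.0 and 11.6 TPM and at 3.55 and 22.3 TPM (-1.63 and 2.36). Igfbp7, a secreted protein that binds insulin-like growth factors and is made by many stromal cells, was at 29.2 and 7.62 TPM and at 23.4 and 149 TPM (-1.81 and 2.62).

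Prr13 and Manf were among the 10 members with the highest mean. Prr13 was at 1245 and 532 TPM and at 351 and 795 TPM (-1.23 and 1.18). Manf, a protein of the endoplasmic reticulum stress response, was at 1249 and 614 TPM and at 214 and 542 TPM (-1.02 and 1.34). The 5 named members nearest the threshold (Manf, Prkch, Tmem251, Smc3 and Ppm1j) had a smaller difference of at most 1.02. The 5 nearest genes outside (Fahd2a, Med10, Aopep, Flt3l and Nr4a2) had one of at least 0.98, so membership there rests on hundredths of a log2. In all, 88 members lay within 0.25 log2 of at least 1 threshold.

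Features that the rule did not use were compared as descriptions. The longest annotated transcript had a median of 1769 nucleotides in 197 members with a length, 1032 in 901 other genes lower with Klf4, 2344 in 4496 other genes higher in Klf4 cKO and 2780 in 11761 measured genes. Transcripts under 1000 nucleotides made up 14.7% of the members, 49.1% of the other genes lower with Klf4 and 14.9% of all measured genes. Both groups of other genes still hold symbols that the rule leaves out by name, such as receptor segments and granzymes. The members cannot hold these, so their contrast in length with the other genes is not free of the rule. Transcripts under 1000 nucleotides held 38.8% of TPM in MigRI, 21.7% with Klf4, 54.9% in Control (WT) and 41.3% in Klf4 cKO. The part of length in the members' differences was not tested.

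**Figure D5:**
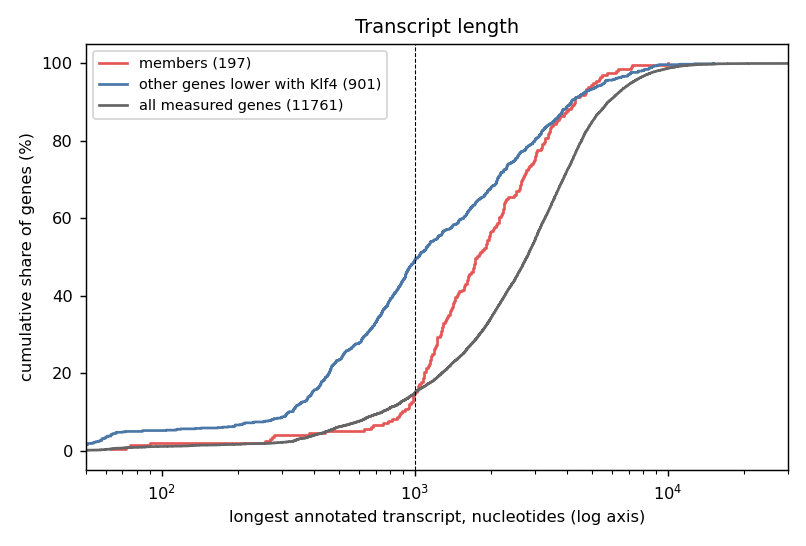
Cumulative share of genes, in percent, by the length of the longest annotated transcript in nucleotides (log axis), for members, other genes lower with Klf4 by at least 1 log2 and all measured genes. The dashed line marks 1000 nucleotides, below which 14.7%, 49.1% and 14.9% of the genes lie. The other genes lower with Klf4 include symbols that the rule leaves out by name, which the members cannot hold.

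Of 202 members found in RefSeq, 176 were protein coding (87.1%, against 82.6% of measured genes), 11 were long noncoding RNAs, 9 pseudogenes and 6 small RNAs, by the annotated kind of gene and not by name. They lay on all autosomes and the X chromosome, with the highest shares of measured genes on chromosome 19 (14 of 447) and X (12 of 403) and the lowest on chromosome 2 (5 of 957). Within 100000 bases of another member lay 41 of the 202, in 18 groups. The same count was not made for other gene sets, so no clustering is read from it. The largest group was the 7 genes around the GIMAP family, and the pairs included Ptprcap with Tbc1d10c, Il2rb with Rac2 and Ms4a4b with Ms4a6b. In 2 pairs the members overlap, Gm38960 within Skap1 and the hairpin of Mir7058 within Lat, and reads of such genes cannot be told apart without strand.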

How the data were processed

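The authors deposited 1 table of TPM values per library, with 45777 entries each. The SMART-seq v4 kit, named in the labels' protocols, does not mark strand. The submitters' processing notes name Trimmomatic, HISAT2, StringTie, edgeR and the build mm10. Their versions and roles and the annotation were not given in the sources used. TPM is scaled to transcript length and to a fixed total, so a few abundant genes lower all others, and read depth and counting error are unknown.

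Among the Control (WT) symbols, 26 had become dates. Of these, 22 were mapped back and 4 left out, which left 45773 genes. Differences are of log2(TPM + 1), a scale that understates changes of low genes. The members, gene lists and motifs were chosen with earlier results of these data known. Transcript length stands in for protein length, as no protein table was used. No test was possible with 1 library per group. Named members were the 20 with the largest smaller difference at 10 TPM or more in the highest library, the 10 with the highest mean, up to 5 per list, those listed at 0, and 5 on either side of the threshold. Predicted genes, small RNAs and receptor segments were not eligible, and 1 member that counts in the totals is not reported here. The other members named in the text (Gimap9, Skap1, Lat, Ptprc, Tbc1d10c, Cxcr3, Rgs2, Gna15, Tcrg-C2, Tcrg-C4, Ms4a6b, Gm38960 and Mir7058) were chosen after their values were seen, as were Lck and Zap70. Csk, Cblb, Dgka, Dgkz, Dok1, Lax1 and Bcl2a1a, all outside the rule, were also named after their values were seen. Coordinates, biotypes and promoters came from RefSeq (GRCm38.p6) and transcript lengths from GENCODE vM21, both on the build of mm10. The rule was tested on simulated data, and Python 3.11.15 with pandas and numpy was used.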

Additional observations from a re-analysis of the deposited data

How the results depend on the processing

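No paired analysis was possible because each group held 1 library with no replicate number. For the same reason no library could be left out. The 205 members became 100 with a pseudocount of 5, 135 at a mean of at least 10 TPM, 56 at a threshold of 1.5 log2 and 10 at 2 log2, and all of these were among the 205. Of the 205, 66 still met the rule relative to the median gene, 59 under median of ratios scaling and 72 under quantile normalization. The rule found 166, 175 and 161 genes on these scales, so most genes it found there were others. The number in the gene lists was 62 as deposited, 36 under quantile normalization, 23 at 1.5 log2 and 1 at 2 log2. Relative to Trac, Trbc1 and Trbc2, the rule found 1 gene, and 0 in the lists. Most of the other settings cannot change the sign of a difference, so signs are not counted as stability. All other settings kept these counts within 1.5 times, from 155 genes at a mean of at least 5 TPM to 307 with a pseudocount of 0.1. Of the 75 members given with values, 44 turned sign on that scale in the gain and 47 in the loss experiment, which follows from the shift of -2.03 and 1.82. For Klf4 minus MigRI, the value was 0.0092 for Mpv17, 0.054 for Gimap1, 0.090 for Fasl, 0.14 for Dusp22, 0.15 for Ctla2b, 0.23 for Igfbp7, 0.29 for Mrpl48, 0.31 for Lpxn, 0.35 for Bcl2a1d, 0.35 for P2ry10, 0.39 for Rac2, 0.40 for Ubxn11, 0.45 for Tnfsf11, 0.47 for Gimap4, 0.48 for Zfp422 and 0.49 for Arhgdib. It was 0.51 for Plac8, 0.58 for Cxcr6, 0.58 for Gimap8, 0.65 for Tipin, 0.66 for Stat4, 0.68 for Il2rg, 0.68 for Tmem191c, 0.68 for Tyms, 0.71 for Vps28, 0.74 for Cxcr3, 0.76 for Tmem254b, 0.77 for Tmem254a, 0.77 for Tmem254c, 0.81 for Prr13, 0.82 for Taf9b and 0.84 for Mrpl46. It was 0.84 for Il2rb, 0.85 for Ccr7, 0.85 for Bcl2a1b, 0.86 for Ptprc, 0.86 for Stmn1, 0.87 for Smc2, 0.90 for Eif5, 0.97 for Rgs2, 0.97 for Pim2, 1.01 for Gna15, 1.01 for Manf and 1.02 for Prkch. For Klf4 cKO minus Control (WT), the value was -0.79 for Vps28, -0.77 for Tbc1d10c, -0.77 for Plac8, -0.76 for Gimap9, -0.73 for Rab19, -0.65 for Bcl2a1b, -0.64 for Tox, -0.64 for Prr13, -0.63 for Stat4, -0.62 for Il2rb, -0.61 for Bcl2a1d, -0.61 for Prkch, -0.60 for Pim2, -0.59 for Taf9b, -0.58 for Stmn1 and -0.58 for Rgs2. It was -0.57 for Smc2, -0.54 for Ptprcap, -0.53 for Eif5, -0.52 for Gimap8, -0.51 for Zfp422, -0.49 for Ptprc, -0.48 for Manf, -0.46 for Gimap1, -0.46 for Sh2d1a, -0.43 for Ctla2b, -0.42 for Lat, -0.41 for Tnfrsf4, -0.38 for Tyms, -0.35 for Il18r1, -0.30 for Il2rg and -0.28 for Tnfsf11. It was -0.27 for P2ry10, -0.26 for Fasl, -0.26 for Tnfrsf18, -0.23 for Mrpl48, -0.23 for Rab37, -0.22 for Gpr183, -0.18 for Skap1, -0.15 for Sla2, -0.10 for Lime1, -0.10 for Gna15, -0.067 for Gnpda2, -0.057 for Tmem254a, -0.027 for Gimap7, -0.021 for Cxcr6 and -0.020 for Mrpl46.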
